A study of Homo sapiens with 4 samples.

Results

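The HOX cluster genes are the protein-coding rows of the gene table whose symbols are HOX, a cluster letter from A to D and a number, and they numbered 39 of the 58735 genes listed. HOXA held 11 of them on chromosome 7, HOXB 10 on chromosome 17, HOXC 9 on chromosome 12 and HOXD 9 on chromosome 2 (GRCh38, GENCODE 29). They were read in 4 RNA-seq libraries of wild-type human colon cancer cell lines, with 1 library each for HCT116 adherent cells, HCT116 spheroids, LOVO adherent cells and LOVO spheroids. Adherent cells grew in RPMI medium with serum and carry no treatment in the labels. The labels give both spheroid libraries a treatment of 1 mg/ml without naming the agent, and the study's methods describe spheres formed in serum-free medium with growth factors in the presence of oxaliplatin, at a dose written in micrograms and not in the milligrams of the labels. The dose these libraries received is therefore not settled, and attachment, medium and drug cannot be told apart in any comparison of spheroids with adherent cells. No group had a second library, so none of the differences between single libraries below has a replicate check.

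HOX genes encode homeodomain transcription factors that lay down identity along the head-to-tail axis of the embryo. They lie in 4 clusters, and the position of a gene in its cluster follows the order in which it is switched on and the level of the axis at which it acts. Genes with the same number in different clusters are paralogues, and there are 13 such groups. Groups 1 to 3 are called anterior here, groups 4 to 8 central and groups 9 to 13 posterior, which gave 8, 15 and 16 members. Adult cells keep part of this pattern, so that intestinal epithelium and connective tissue from different body sites use different sets of HOX genes.

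The 4 libraries held 15483569 to 20429147 reads on genes, of which 0.0249% to 0.0336% fell on HOX genes. Values are FPKM, reads scaled by gene length and library size, so levels can be compared between genes. Intervals printed with a level or a ratio are exact 95% counting intervals, which cover counting error only and compare 2 libraries, not 2 conditions. The 2 libraries labelled LOVO went against their label as colon cancer epithelium. EPCAM, an epithelial surface protein, was at 85.6 and 79.3 FPKM in HCT116 adherent cells and spheroids and at 0.930 and 1.50 in the LOVO libraries. CDH1, the epithelial adhesion protein E-cadherin, was at 31.1 FPKM in both HCT116 libraries and at 0.117 and 0.00805 in LOVO. CDX2, the homeobox factor that marks intestinal epithelium, had 323 and 216 reads in HCT116 and 0 in both LOVO libraries. Summed over 11 colorectal epithelium markers, the level was 1288 to 1754 FPKM in HCT116 and 187 to 327 FPKM in LOVO. Of the 11, 6 and 7 were at 1 FPKM or more in HCT116 adherent cells and spheroids, and 3 and 4 still were in LOVO. The 6 fibroblast markers summed to 5.60 to 16.1 FPKM in HCT116 and 54.0 to 72.8 FPKM in LOVO. Among those fibroblast genes LUM had 31.4 and 50.4 FPKM in LOVO and at most 1 read in HCT116, DCN had 10.4 and 9.97 FPKM against 0 reads, and COL1A2 had at most 1 read in every library. Of the 4 fibroblast markers with a mean of at least 1 FPKM over the 4 libraries, all 4 were higher in LOVO among adherent cells, against 53.0% of all genes compared. Among spheroids 3 were higher and 1 lower in LOVO, where 51.6% were higher. LUM and DCN passed that mean through LOVO alone, so the mean set their direction. With no minimum, 5 of the 6 were higher and 0 lower in LOVO among adherent cells, and 4 higher and 2 lower among spheroids. Each difference between the lines below therefore compares the libraries labelled LOVO with those labelled HCT116, and the part that the identity of these cells has in the HOX result was not tested.

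HOX genes were expressed at a low to moderate level in all 4 libraries. In RNA from whole cultures, fewer cells that use a gene and less RNA per cell cannot be told apart. Of the 39 members, 31 reached 1 FPKM in at least 1 library and 15 in all 4. HCT116 adherent cells had 21 members at 1 FPKM or more, HCT116 spheroids 22, and LOVO adherent cells and spheroids 25 each. The summed level of all members was 93.5 FPKM in HCT116 adherent cells, 108.9 in HCT116 spheroids, 143.9 in LOVO adherent cells and 122.3 in LOVO spheroids. A few genes carried much of it: HOXA9, HOXB9 and HOXB7 held 41.3% of the HOX signal in HCT116 adherent cells and 40.2% in HCT116 spheroids, whereas HOXC10, HOXB7 and HOXA11 held 44.7% in LOVO adherent cells and 37.6% in LOVO spheroids.

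**Figure D1:**
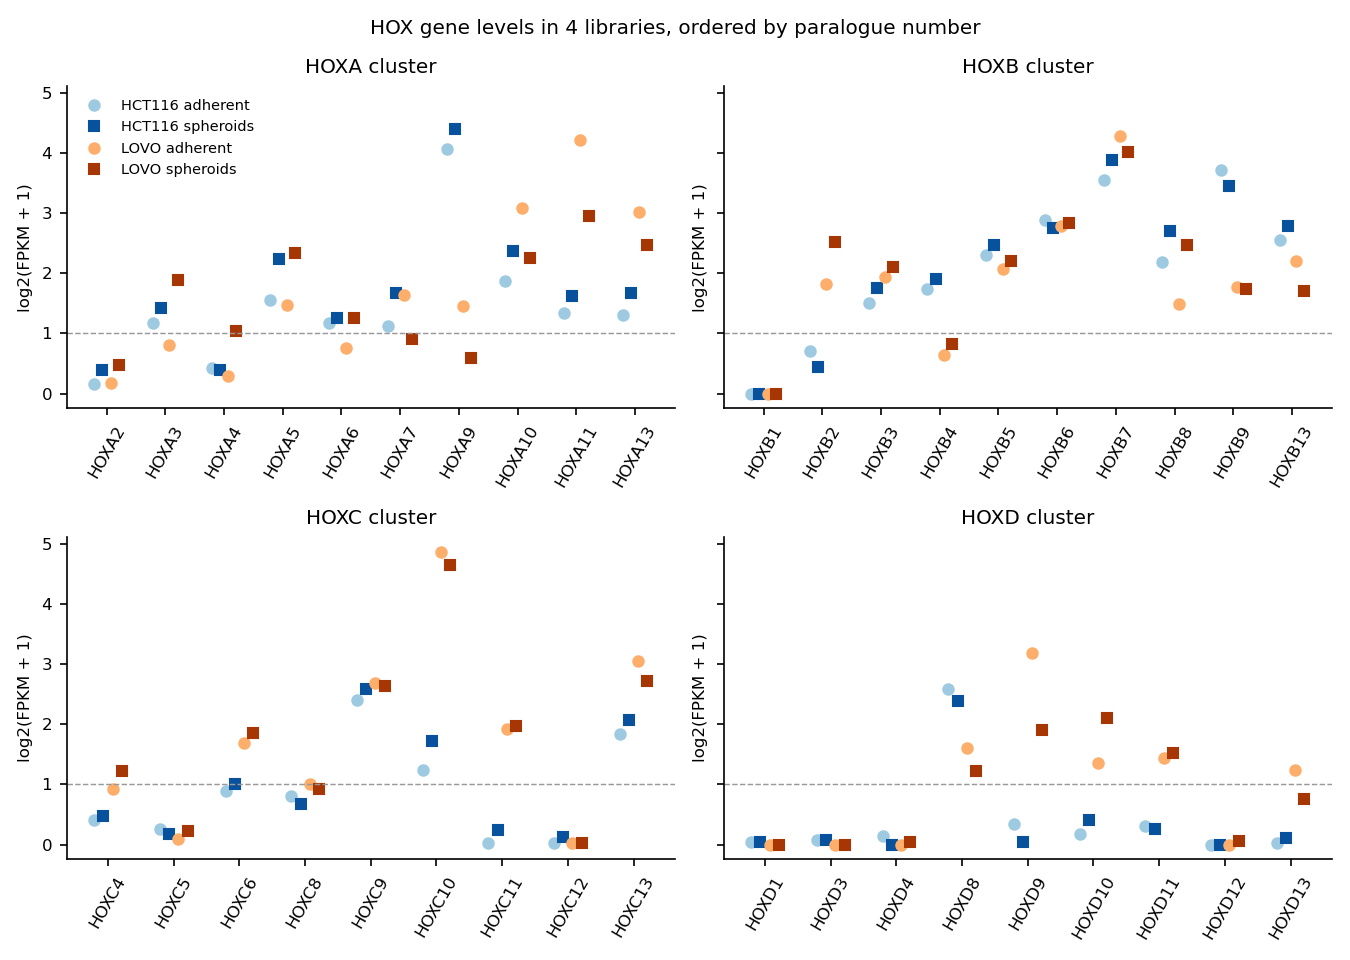
Level of the HOX genes as log2(FPKM + 1) in the 4 libraries, 1 point a library, with genes named here in order of paralogue number in each cluster (circles for adherent cells, squares for spheroids, blue for HCT116, orange and brown for LOVO). The dashed line marks 1 FPKM. HOXA9 stood highest in HCT116 and HOXC10 highest in LOVO, and both of the LOVO points for HOXC10, HOXC11, HOXD9, HOXD10 and HOXD11 lay above both HCT116 points.

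The clusters differed in how they were used. HOXB gave nearly the same total in every library, at 46.4 and 50.9 FPKM in HCT116 adherent cells and spheroids and 41.2 and 42.9 in LOVO, with 8 of 10 members at 1 FPKM or more throughout. HOXC gave 10.4 and 12.9 FPKM in HCT116 and 48.0 and 42.9 in LOVO, which was 4.62-fold higher in LOVO among adherent cells and 3.33-fold higher among spheroids. Much of this was 1 gene, since HOXC10 gave 1.37 and 2.30 FPKM of the HCT116 totals and 28.3 and 24.2 of the LOVO totals. HOXD, the lowest cluster, gave 5.85 and 4.98 FPKM in HCT116 from 1 member above 1 FPKM, and 14.8 and 10.0 in LOVO from 5 and 4 members. HOXA had no such order, with 30.9 and 40.1 FPKM in HCT116 and 39.9 and 26.5 in LOVO. By position, posterior genes held 50.6% and 51.1% of the HOX signal in HCT116 adherent cells and spheroids, 67.1% in LOVO adherent cells and 54.6% in LOVO spheroids. Anterior genes held 9.45% in LOVO spheroids and 4.46% to 7.76% in the other libraries.

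**Figure D2:**
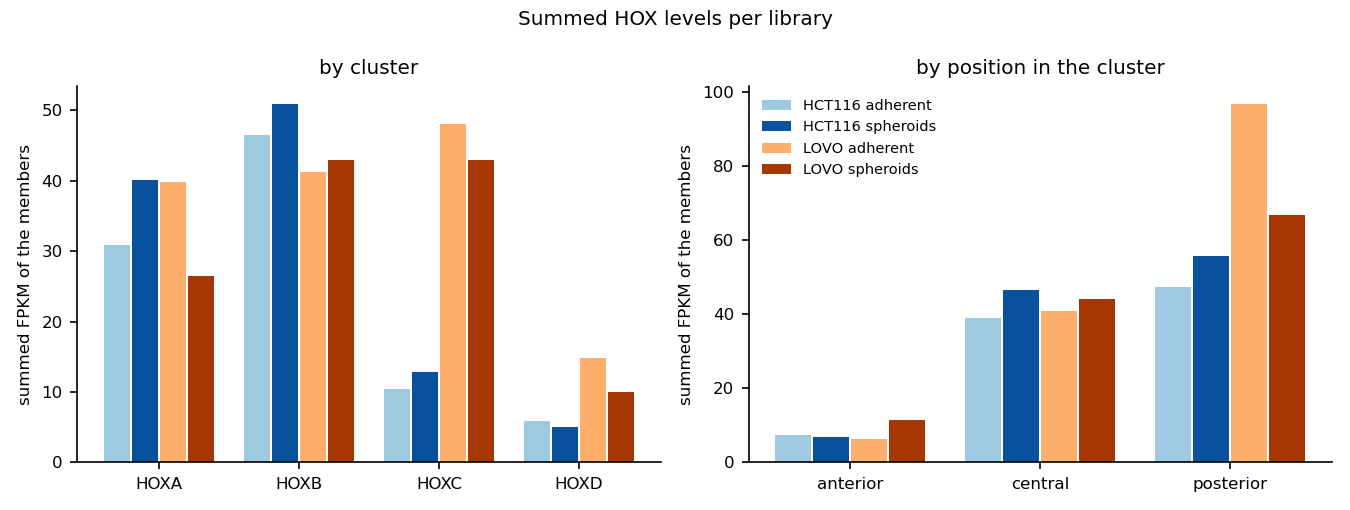
Summed FPKM of the HOX genes in each library, by cluster on the left and by position in the cluster on the right (1 bar a library, no error bar because each group is 1 library). The HOXC bars of LOVO, 48.0 and 42.9, stand above those of HCT116, 10.4 and 12.9, and the posterior bar of LOVO adherent cells reaches 96.7.

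The members that were little used are given by count. Of the 39, 8 stayed under 1 FPKM in every library: HOXA2, HOXB1, HOXC5, HOXC12, HOXD1, HOXD3, HOXD4 and HOXD12. HOXB1, a hindbrain gene, had 0 reads in all 4 libraries, and HOXD1, HOXD4 and HOXD12 had at most 3 reads in any of them. A count of 0 allows up to 3 reads, so expression of these genes was not detectable at this depth. In the comparisons of fold, 27 members passed a minimum mean of 1 FPKM over the 4 libraries, together with 14429 genes in all. HOXD11 was just inside that minimum with a mean of 1.01 FPKM and HOXC8 just outside it with 0.813. The 12 that did not pass were the 8 above with HOXA4, HOXC4, HOXC8 and HOXD13. HOXB2, HOXC11, HOXD9, HOXD10 and HOXD11 were under 1 FPKM in both HCT116 libraries and passed through their LOVO values, while HOXB4 and 1 more member were under it in both LOVO libraries and passed through HCT116. The counts among the 27 below are partly set by this minimum.

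Members whose exons overlap other genes carry an uncertain share of their reads, since the counting method and its use of strand are not given in the sources used here. In GENCODE 29, 18 of the 39 share exonic bases with another gene on the same strand, 19 with a gene on the opposite strand and 14 with none. The overlap was 62.5% of HOXA7 with the antisense RNA HOXA-AS3, 31.1% of HOXA11 with HOXA11-AS, and 16.8% of HOXD10 and 21.4% of HOXD11 with each other. HOXA9 shared 15.9% of its bases on the same strand and 13.9% on the opposite one. The shares were 9.24% and 15.4% for HOXA3, 31.0% and 16.3% for HOXA4, and 4.44% and 39.3% for HOXA6. HOXA-AS3 was among the opposite-strand genes of HOXA3, HOXA4, HOXA6 and HOXA7. HOXB7, HOXB8, HOXB9, HOXB13, HOXC11, HOXD8, HOXD9 and HOXD13 were among the 14 with no shared base.

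The first comparison asked how the libraries of the 2 lines differed in HOX genes. The separation lay mostly in posterior genes and in HOXC and HOXD: HOXC10, HOXC11, HOXD9, HOXD10, HOXD11, HOXA11, HOXA13 and HOXB2 were higher in LOVO in both growth forms, and HOXA9, HOXB9, HOXB4 and HOXD8 were higher in HCT116. On the log2(FPKM + 1) scale, 4 of the 27 members past the minimum differed by more than 2 between the adherent libraries, where 10.9% of all genes compared did. HOXA11, HOXC10 and HOXD9 were the 3 higher in LOVO, against 5.26% of genes, and HOXA9 the 1 lower, against 5.59%. Between the spheroid libraries the same threshold was passed by 3 members, against 10.4% of all genes, with HOXB2 and HOXC10 higher in LOVO, against 5.68%, and HOXA9 lower, against 4.71%. At a threshold of 1 the numbers were 14 members for adherent cells, 10 higher and 4 lower in LOVO, against 33.8% of genes (17.4% and 16.4%), and 13 for spheroids, 7 higher and 6 lower, against 32.7% (17.7% and 15.0%).

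**Figure D3:**
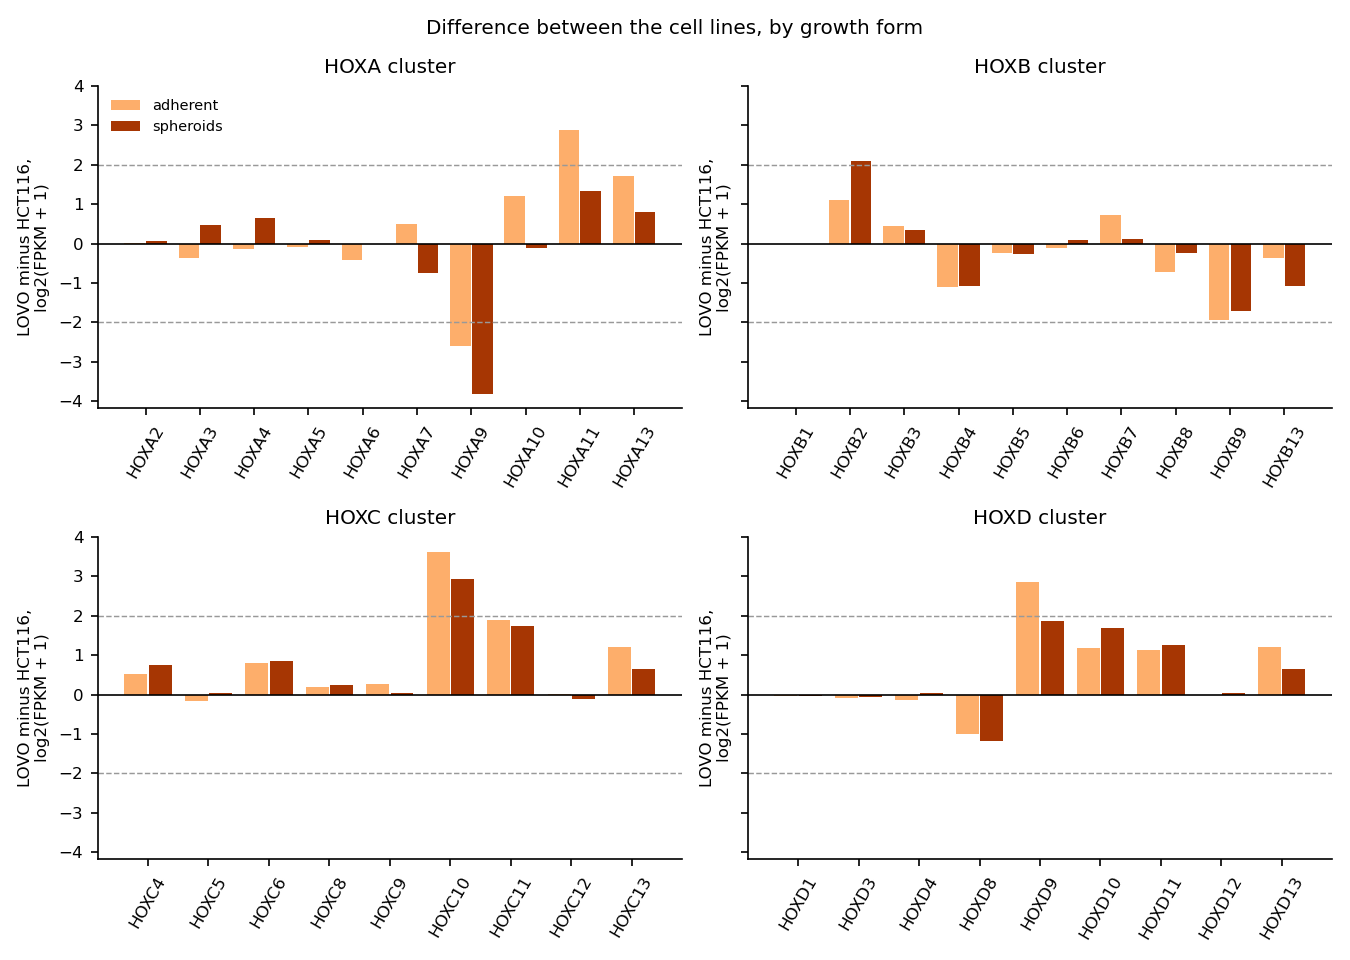
Difference between LOVO and HCT116 for the HOX genes named here on the log2(FPKM + 1) scale, by cluster, with light bars for adherent cells and dark bars for spheroids (1 library a bar, no replicate error). Bars above 0 are higher in LOVO and dashed lines mark 2 and minus 2. HOXC10 reaches 3.63 and 2.93, HOXA9 reaches -2.61 and -3.80, and all HOXC members past the minimum point upward.

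HOXA9 and HOXA11 lie near the posterior end of the HOXA cluster with HOXA10 between them, and they went opposite ways. HOXA9, a posterior factor used in blood and gut development, lies at chr7:27162435-27175180 and was at 15.8 FPKM in HCT116 adherent cells, 20.1 in HCT116 spheroids, 1.75 in LOVO adherent cells and 0.509 in LOVO spheroids. It was 9.01-fold lower in LOVO than in HCT116 among adherent cells and 39.5-fold lower among spheroids. HOXA11, a factor of limb and uterus development at chr7:27181510-27185223, was at 1.53 and 2.06 FPKM in HCT116 and at 17.7 and 6.72 in LOVO adherent cells and spheroids. Both LOVO libraries thus stood above both HCT116 libraries for HOXA11 and below both for HOXA9. HOXA10, between them, was at 2.66, 4.16, 7.51 and 3.79 FPKM in HCT116 adherent cells, HCT116 spheroids, LOVO adherent cells and LOVO spheroids, and here the lines overlapped. HOXA13, the last gene of the cluster and a factor of the hindgut and the digits, was at 1.49 and 2.19 FPKM in HCT116 and 7.10 and 4.54 in LOVO.

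The windows around the starts of these genes are shown because HOXA9 and HOXA11, and again HOXD8 and HOXD10, took opposite sides between the lines. HOXA10 lies between the first pair and HOXD9, which has no window, between the second. Each runs 5′ to 3′ on the gene's strand, from 250 bases before a RefSeq start to 50 after it, in the assembly GRCh38.p14. Capitals mark matches to TTTATG, the core letters bound by CDX factors, or to TATAAA, the TATA box, on either strand, and CATAAA is TTTATG read on the other strand. HOXA9 is at chr7:27165488-27165787 and HOXA11 at chr7:27185183-27185482, both on the minus strand, and HOXD8 is at chr2:176129455-176129754 and HOXD10 at chr2:176116528-176116827 on the plus strand.
HOXA9: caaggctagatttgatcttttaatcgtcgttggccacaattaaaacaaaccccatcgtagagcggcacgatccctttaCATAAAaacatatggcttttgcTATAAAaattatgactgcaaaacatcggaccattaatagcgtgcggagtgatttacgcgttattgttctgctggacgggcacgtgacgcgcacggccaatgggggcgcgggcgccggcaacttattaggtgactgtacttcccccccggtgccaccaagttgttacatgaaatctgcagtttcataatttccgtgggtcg
HOXA11: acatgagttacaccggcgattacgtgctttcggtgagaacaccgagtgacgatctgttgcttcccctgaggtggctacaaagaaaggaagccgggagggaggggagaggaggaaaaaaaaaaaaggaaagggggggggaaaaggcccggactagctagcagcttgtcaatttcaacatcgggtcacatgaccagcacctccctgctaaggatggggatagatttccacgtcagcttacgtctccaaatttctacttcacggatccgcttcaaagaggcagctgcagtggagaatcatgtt
HOXD8: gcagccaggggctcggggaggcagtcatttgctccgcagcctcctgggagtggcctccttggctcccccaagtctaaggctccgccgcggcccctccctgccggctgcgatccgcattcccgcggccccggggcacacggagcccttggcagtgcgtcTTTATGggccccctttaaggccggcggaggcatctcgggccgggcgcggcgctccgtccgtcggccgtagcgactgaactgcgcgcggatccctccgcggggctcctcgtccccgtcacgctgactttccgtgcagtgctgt
HOXD10: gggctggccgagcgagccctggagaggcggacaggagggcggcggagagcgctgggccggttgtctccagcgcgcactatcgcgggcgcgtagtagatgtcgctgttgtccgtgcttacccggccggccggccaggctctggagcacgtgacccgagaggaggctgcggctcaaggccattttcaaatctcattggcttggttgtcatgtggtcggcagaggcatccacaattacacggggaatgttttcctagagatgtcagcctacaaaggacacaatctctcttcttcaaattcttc

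RefSeq windows were found for 20 HOX genes, 27 windows in all, and no entry was found for HOXC10 or HOXD9. TTTATG occurred in 3 of the 27, at HOXA3, HOXA9 and HOXD8, which is 11.1% against 10.6% of the 35116 windows of all genes. TATAAA occurred in 5 windows, of HOXA3, HOXA9, HOXA10 and HOXD13, 18.5% against 11.5%. TGATNNAT, the letters of joint HOX and PBX sites, occurred in 3 windows, of HOXA2, HOXB1 and HOXD11, 11.1% against 7.40%. AGGTCA, the core letters of retinoic acid receptor sites, occurred in none, against 13.8% of all windows. HOX windows held a median of 22 CpG against 14 in all windows. These matches describe letters and not binding.

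In HOXA, the central gene HOXA5 was close between the lines in both growth forms, and HOXA6 among spheroids only. HOXA4 differed among spheroids and HOXA7 in both forms, in opposite directions. HOXA5, a lung and gut mesenchyme factor, was at 1.95 and 3.73 FPKM in HCT116 and 1.76 and 4.08 in LOVO, and HOXA6 at 1.26 and 1.39 and at 0.694 and 1.39. For both, the counting interval of the ratio between the lines included 0 on the log2 scale in each growth form. For HOXA6 in adherent cells this rested on few reads, 33 in HCT116 and 16 in LOVO. There it was 1.81-fold lower in LOVO (log2 interval -1.82 to 0.04). HOXA4 was at 0.337 and 0.307 FPKM in HCT116 and 0.223 and 1.05 in LOVO, 3.43-fold higher in LOVO among spheroids (log2 interval 0.70 to 3.02). Among adherent cells the interval of HOXA4 included 0 (-2.18 to 0.87), with 12 reads in HCT116 and 7 in LOVO. HOXA7 was at 1.18 and 2.17 FPKM in HCT116 and 2.10 and 0.886 in LOVO. It was 1.78-fold higher in LOVO among adherent cells (0.34 to 1.34) and 2.45-fold lower among spheroids (-1.85 to -0.75).

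HOXB had close totals in the 2 lines, but HOXB6 was the member nearest to equal levels in both growth forms among those described here. HOXB7, the member with the highest mean over the 4 libraries (14.5 FPKM), was at 10.7 and 13.8 FPKM in HCT116 adherent cells and spheroids and 18.4 and 15.1 in LOVO. It was 1.72-fold higher in LOVO among adherent cells (log2 interval 0.58 to 0.98), and between the spheroid libraries its interval included 0. HOXB6 was at 6.39 and 5.76 FPKM in HCT116 and 5.89 and 6.18 in LOVO, and HOXB5 at 3.94 and 4.55 against 3.22 and 3.60, where the interval included 0 in adherent cells and lay below 0 in spheroids. The libraries of the lines overlapped for HOXB6, and the log2 ratio of LOVO to HCT116 was -0.12 (interval -0.35 to 0.12) in adherent cells and 0.10 (-0.14 to 0.35) in spheroids. HOXB8 overlapped too, at 3.56, 5.48, 1.79 and 4.53 FPKM in HCT116 adherent cells, HCT116 spheroids, LOVO adherent cells and LOVO spheroids.

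Both ends of HOXB differed more. HOXB2, an anterior gene of hindbrain segments, was at 0.630 and 0.357 FPKM in HCT116 adherent cells and spheroids and at 2.53 and 4.77 in LOVO, 4.02-fold and 13.4-fold higher in LOVO. HOXB9, a posterior gene of the thoracic axis, was at 12.1 and 9.89 FPKM in HCT116 and at 2.42 and 2.33 in LOVO, 5.01-fold and 4.25-fold lower. HOXB4, known from blood stem cells, was at 2.35 and 2.76 FPKM in HCT116 and 0.564 and 0.780 in LOVO. HCT116 stood above LOVO in every library for HOXB4 and HOXB9 and below it for HOXB2. HOXB13, a gene of the hindgut and prostate far from the rest of its cluster, was at 4.85 and 5.87 FPKM in HCT116 and at 3.59 and 2.28 in LOVO.

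HOXC had higher values in LOVO for all 5 of its members past the minimum, in both growth forms. HOXC10, a posterior gene of the lumbar axis and hindlimb at chr12:53985065-53990279, was at 1.37 FPKM (65 reads) in HCT116 adherent cells, 2.30 (90 reads) in HCT116 spheroids, 28.3 (1183 reads) in LOVO adherent cells and 24.2 (1133 reads) in LOVO spheroids. It was 20.7-fold higher in LOVO among adherent cells, a log2 ratio of 4.37 (interval 4.01 to 4.75), and 10.5-fold higher among spheroids, 3.39 (3.08 to 3.72). HOXC11, its neighbour, had 1 and 10 reads in HCT116 adherent cells and spheroids and 164 and 193 in LOVO, and its log2 ratio was 7.54 (5.04 to 12.85) and 4.01 (3.10 to 5.09). HOXC13, a hair and nail factor at the end of the cluster, was at 2.57 and 3.19 FPKM in HCT116 and 7.32 and 5.58 in LOVO. HOXC6, a central gene, was at 0.859 and 1.01 FPKM against 2.22 and 2.61. HOXC9 was nearly level, at 4.30, 5.00, 5.41 and 5.21 FPKM in HCT116 adherent cells, HCT116 spheroids, LOVO adherent cells and LOVO spheroids. Its interval between the spheroid libraries included 0. Between the adherent libraries HOXC9 was 1.26-fold higher in LOVO, with a log2 interval just above 0 (0.003 to 0.665).

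Under 1 FPKM on average, HOXC4 and HOXC8 were at 0.324 and 0.753 FPKM in HCT116 adherent cells, 0.393 and 0.599 in HCT116 spheroids, 0.900 and 1.00 in LOVO adherent cells and 1.33 and 0.895 in LOVO spheroids. HOXC4 was higher in LOVO with both counting intervals above 0, and for HOXC8 both included 0.

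HOXD was split between HOXD8 and the genes on its posterior side. HOXD8 was at 5.02 and 4.26 FPKM in HCT116 adherent cells and spheroids and at 2.04 and 1.32 in LOVO, 2.47-fold and 3.22-fold lower in LOVO. The next gene, HOXD9 at chr2:176122720-176124937, was at 0.262 FPKM (10 reads) and 0.0318 (1 read) in HCT116 and at 8.11 (272 reads) and 2.74 (103 reads) in LOVO. Its log2 ratio of LOVO to HCT116 was 4.95 (interval 4.05 to 6.03) in adherent cells and 6.43 (3.92 to 11.74) in spheroids. HOXD10 was at 0.128 and 0.332 FPKM in HCT116 and 1.55 and 3.32 in LOVO, HOXD11 at 0.233 and 0.197 against 1.72 and 1.88, and HOXD13, the digit and genital tubercle factor, at 0.0219 and 0.0797 against 1.37 and 0.688. From HOXD9 on, every LOVO library stood above both HCT116 libraries for these 4 genes. HOXD3 and HOXD4 on the anterior side stayed at 4 reads or fewer in each library.

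Counted by the interval among the 27 members past the minimum, 15 were higher and 8 lower in LOVO among adherent cells, where 45.4% and 38.6% of all genes tested past it were. Among spheroids 12 were higher and 8 lower, where 43.2% and 39.8% were. Over all 39 members the numbers were 17 and 8 for adherent cells and 15 and 8 for spheroids. In all, 13 of the 39 members were higher in LOVO in both growth forms and 6 were lower. Of the 13, 9 were posterior genes, 5 belonged to HOXC and 4 to HOXD: HOXA11, HOXA13, HOXB2, HOXB3, HOXC4, HOXC6, HOXC10, HOXC11, HOXC13, HOXD9, HOXD10, HOXD11 and HOXD13. The 6 included HOXA9, HOXB4, HOXB9, HOXB13 and HOXD8. Among the 27 members past the minimum these were 11 and 6, where 34.0% and 30.0% of all genes tested met the same pair of conditions. HOXA3 and HOXA7 had intervals on opposite sides of 0 in the 2 forms. With no minimum applied, the median difference of all 16 posterior members was 1.20 on the log2(FPKM + 1) scale between the adherent libraries, with 12 higher and 3 lower in LOVO, and 0.65 between the spheroid libraries, with 11 higher and 5 lower. All 58735 genes, most of them under that minimum, had a median of 0 in both. For the 15 central members the medians were -0.13 and 0.05.

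A fit across all 14429 genes that took the growth forms of a line as its replicates, with growth form as a covariate, left 1 residual degree of freedom. By limma with Benjamini-Hochberg adjustment, 11 of the 27 HOX genes differed between the lines at an adjusted p under 0.05, where 24.7% of all genes did. The 7 higher in LOVO were HOXA11, HOXB2, HOXC10, HOXC11, HOXD9, HOXD10 and HOXD11, and the 4 lower included HOXA9, HOXB9 and HOXD8. Of the 7, all but HOXA11 and HOXC10 passed the minimum through LOVO only. With no filter on low values limma called 6 of 38, with HOXA11, HOXC10, HOXC11 and HOXD9 higher and HOXA9 and HOXB9 lower, where 7.34% of all genes were called. HOXC10 differed by 3.28 ± 0.29 (SE, log2, n = 2 libraries a line, limma adjusted p = 0.00659) and HOXA9 by -3.21 ± 0.37 (limma adjusted p = 0.00983). HOXB9 differed by -1.83 ± 0.25 (limma adjusted p = 0.0136), HOXD9 by 2.35 ± 0.36 (0.0167) and HOXC11 by 1.82 ± 0.29 (0.0185). For HOXA13 the difference was 1.25 ± 0.33 and for HOXB4 -1.09 ± 0.28, which missed the threshold with limma adjusted p of 0.0529 and 0.0503. With 3 libraries the growth-form term has to be dropped. Without that term limma called 10 of the 27 HOX genes on all 4 libraries, where 18.3% of all genes were called. Leaving out 1 library changed the calls of HOX genes and of all genes. Such a fit leaves 1 library in a line, so its calls are not counted here.

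The second comparison asked how spheroids differed from adherent cells within each line. Fewer HOX genes passed the thresholds here than between the lines. No HOX gene differed by more than 2 on the log2(FPKM + 1) scale in either line, where 0.707% of all genes did so in HCT116, 0.201% higher and 0.506% lower, and 2.75% in LOVO, 1.81% higher and 0.943% lower. At a threshold of 1 there were 0 in HCT116, against 5.52% of genes (2.19% higher and 3.33% lower), and 3 in LOVO, against 16.4%. These were HOXA3, higher in spheroids by 1.09, against 8.57% of genes, and HOXA11 and HOXD9, with differences of -1.28 and -1.29, against 7.85%. limma called 0 HOX genes and 0 of all genes for growth form, with 2 HOX genes, HOXA5 and HOXB8, and 1545 genes in all at an unadjusted p under 0.05. The median difference over the 27 members was 0.23 in HCT116, with 20 of 27 higher in spheroids, where 45.8% of all genes compared were. In LOVO it was 0.05, with 14 of 27 higher, where 45.5% were. The medians of all genes were -0.03 and -0.06. Over all 39 members the median difference was 0.11 and 0.05.

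In LOVO the direction of change differed along the HOXA cluster. HOXA2 to HOXA6 were all higher in spheroids, with a median difference of 0.75 on the log2(FPKM + 1) scale. HOXA7 to HOXA13 were all lower, with a median of -0.83. The break between HOXA6 and HOXA7 was set where these LOVO values change sign, and it cuts the central group. The opposite medians follow from that choice. HOXA2 had few reads, 6 in LOVO adherent cells and 19 in LOVO spheroids. HOXA3 was at 0.751 FPKM (58 reads) in LOVO adherent cells and 2.72 (236 reads) in LOVO spheroids, and HOXA4 at 0.223 (7 reads) and 1.05 (37 reads). Their log2 ratios were 1.86 (interval 1.44 to 2.30) and 2.24 (1.05 to 3.65). On the other side, HOXA7 was at 2.10 FPKM in adherent cells and 0.886 in spheroids, a log2 ratio of -1.25 (-1.81 to -0.71). HOXA9 had a ratio of -1.78 (-2.42 to -1.18), HOXA10 of -0.98 (-1.20 to -0.77), HOXA11 of -1.40 (-1.59 to -1.20) and HOXA13 of -0.64 (-0.82 to -0.47). All of the first 5 had intervals above 0, and all of the last 5 had intervals below 0. HCT116 showed no such split, with 4 of 5 of HOXA2 to HOXA6 and 5 of 5 of HOXA7 to HOXA13 higher in spheroids.

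**Figure D4:**
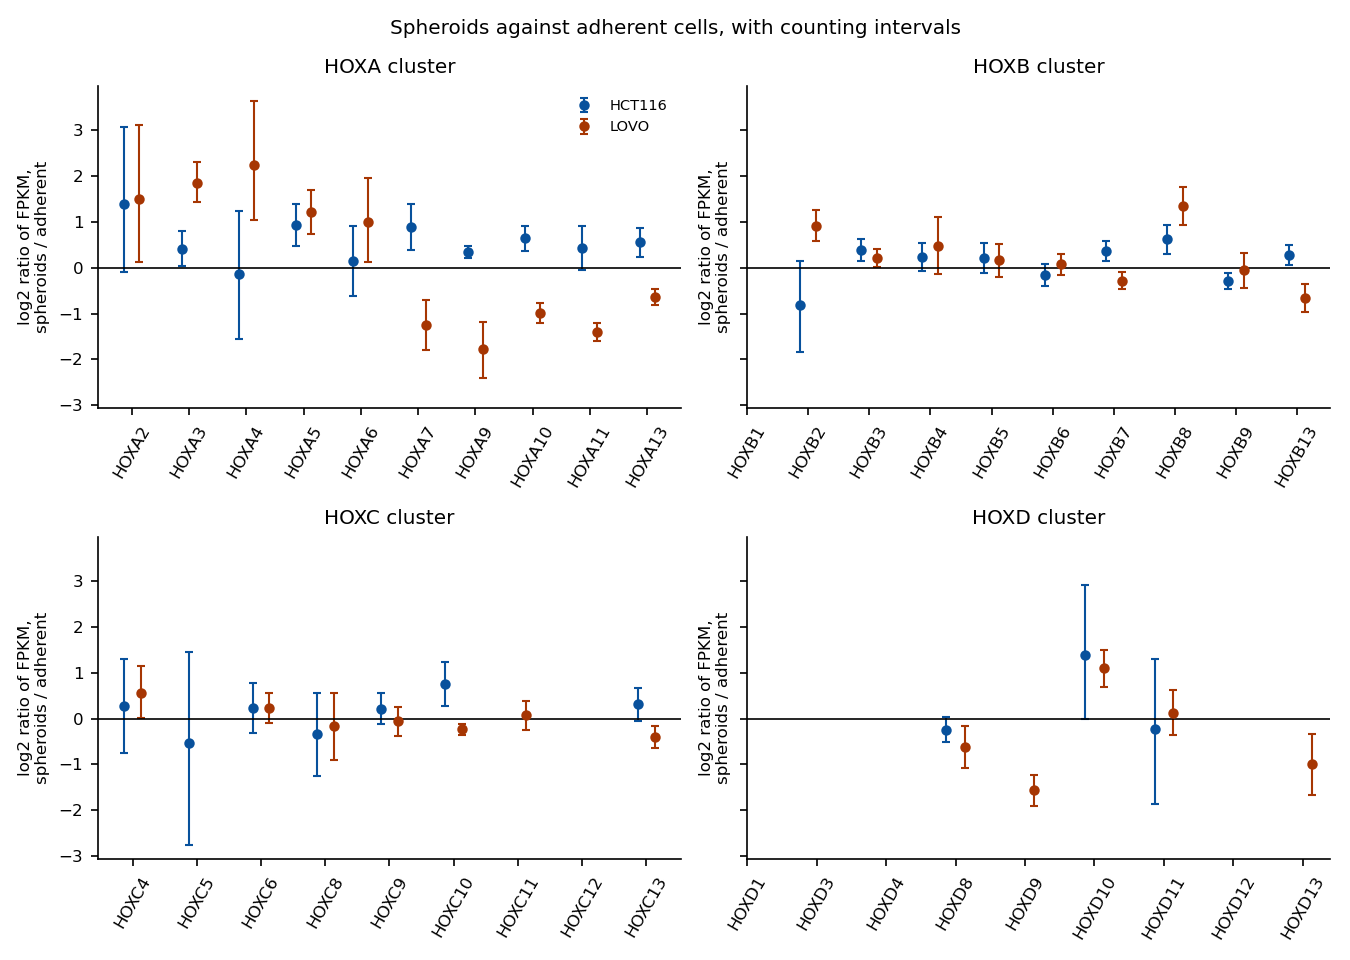
Log2 ratio of FPKM in spheroids to adherent cells for the HOX genes named here, blue for HCT116 and brown for LOVO, with exact 95% counting intervals, shown where both libraries had more than 3 reads. In the HOXA panel the LOVO points lie above 0 from HOXA2 to HOXA6 and below 0 from HOXA7 to HOXA13, while the HCT116 points from HOXA7 on lie above 0.

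Counted by the interval among the 27 members past the minimum, HCT116 spheroids had 12 higher, where 27.9% of genes tested past it were, and 3 lower, HOXB9 and HOXD9 among them, where 36.0% were. In LOVO spheroids 7 of the 27 were higher, against 33.1%, and 11 lower, against 43.3%. Over all 39 members the numbers were 12 and 3 in HCT116 and 10 and 12 in LOVO. HOXA3, HOXA5, HOXB3 and HOXB8 were higher in spheroids of both lines, against 14.4% of genes, and HOXD9 lower in both, against 23.9%. HOXA5 had log2 ratios of 0.93 (interval 0.48 to 1.39) in HCT116 and 1.21 (0.75 to 1.69) in LOVO, and HOXB8 of 0.62 (0.30 to 0.94) and 1.34 (0.92 to 1.76). HOXB3 was at 1.84 and 2.39 FPKM in HCT116 adherent cells and spheroids and 2.84 and 3.31 in LOVO. Its log2 ratios were smaller, at 0.38 (0.14 to 0.62) and 0.22 (0.03 to 0.42). These 4 are anterior or central genes, and their number among the 27 is near the 14.4% of all genes. With the values rescaled to TPM or by a TMM-style factor, HOXA5, HOXB3 and HOXB8 kept intervals above 0 in both lines, and HOXA3 kept it in both lines with TPM but not in HCT116 with the TMM-style factor.

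A further 7 members were higher in HCT116 spheroids and lower in LOVO spheroids, against 7.82% of genes, and none went the reverse way, against 6.96%. They were HOXA7, HOXA9, HOXA10, HOXA13, HOXB7, HOXB13 and HOXC10, of which 5 are posterior and 4 lie in HOXA. With TPM the LOVO intervals of HOXB7 and HOXC10 included 0, and with the TMM-style factor the HCT116 interval of HOXB13 did. HOXB2 and HOXD10 were higher in LOVO spheroids than in LOVO adherent cells, by log2 ratios of 0.91 (interval 0.57 to 1.26) and 1.10 (0.70 to 1.50), and in HCT116 their intervals included 0. Outside HOXA, the posterior genes HOXC9, HOXC11 and HOXD11 were level between the growth forms of LOVO, with ratios of -0.05 (-0.37 to 0.26), 0.07 (-0.24 to 0.38) and 0.13 (-0.36 to 0.63), and the interval of HOXB9 included 0 as well. HOXC13 and HOXD13 were lower in LOVO spheroids, with ratios of -0.39 (-0.63 to -0.15) and -0.99 (-1.68 to -0.33), as were HOXB13, HOXC10 and HOXD9. With TPM the interval of HOXC13 included 0. The endothelial marker PECAM1 was at 6.35 FPKM in LOVO spheroids and at 0.0359 in LOVO adherent cells, and its part in the LOVO comparison was not tested.

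One HOX transcript with a known small-RNA partner was among the genes higher in both sets of spheroids. The miR-196 family is encoded inside the HOX clusters and cleaves HOXB8 messenger RNA at a nearly perfect site. The mature sequences are shown with the seed, bases 2 to 8, in capitals, and both share it, followed by the HOXB8 site at chr17:48612770-48612791 (GRCh38, minus strand) with the bases that pair in capitals. 
hsa-miR-196a-5p: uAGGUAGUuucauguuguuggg
hsa-miR-196b-5p: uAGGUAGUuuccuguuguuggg
HOXB8 site: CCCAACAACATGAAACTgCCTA
Of the 22 bases of the site 21 match hsa-miR-196a-5p, and the 22nd forms a G to U pair. In the other members the best site had at most 15 matching bases. Mature miRNAs were not measured in these libraries. Reads on the hairpin genes were few, with 4, 10, 0 and 0 on MIR196A1 in HCT116 adherent cells, HCT116 spheroids, LOVO adherent cells and LOVO spheroids, at most 3 on MIR196A2, MIR615 or MIR10B, and 0 on MIR196B and MIR10A.

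The long non-coding RNAs transcribed within the clusters differed between the lines as well. Of 18 listed, 9 passed the minimum, and 8 of those 9 were higher in LOVO in each growth form, with medians of 1.05 for adherent cells and 1.08 for spheroids on the log2(FPKM + 1) scale, where 53.0% and 51.6% of all genes compared were higher. With the values centred on the median of all genes, 7 of 9 were higher among adherent cells. Of the 18, 4 and 5 were at 1 FPKM or more in HCT116 adherent cells and spheroids, and 10 in each LOVO library. The count among the 9 is therefore partly set by the minimum. With no minimum, 14 of the 18 were higher and 4 lower among adherent cells and 13 and 4 among spheroids, with medians of 0.44 and 0.48. HOTTIP, transcribed beside HOXA13, had 6 and 9 reads in HCT116 and 226 and 190 in LOVO. HOXA11-AS had 15 and 25 reads against 266 and 291, and HOTAIR, antisense within HOXC and known for recruiting Polycomb to HOXD, had 8 and 18 against 89 and 160. HOTAIRM1, at the anterior end of HOXA, was at 2.89 and 3.58 FPKM in HCT116 and 7.04 and 16.9 in LOVO adherent cells and spheroids. HOXB-AS4 alone of the 9 was lower in LOVO, with 25 and 47 reads in HCT116 and 0 and 2 in LOVO.

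Genes flanking the clusters were read beside them. The flanks on the 3′ side of HOXB differed, since SKAP1 had 175 and 151 reads in HCT116 and 0 in both LOVO libraries. SKAP2, on the anterior side of HOXA, was at 7.17 and 8.43 FPKM in HCT116 and 3.13 and 8.82 in LOVO, and so was higher in LOVO spheroids than in LOVO adherent cells by 1.25 on the log2(FPKM + 1) scale. EVX1, beside HOXA13, and EVX2, beside HOXD13, had at most 6 reads in any library. Of the 16 neighbours found, 11 passed the minimum, and 2 were higher and 1 lower in LOVO by more than 1 among adherent cells, against 17.4% and 16.4% of all genes compared, and 1 and 1 among spheroids, against 17.7% and 15.0%.

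HOX proteins bind DNA with TALE cofactors of the PBX, MEIS and PKNOX families. Of 9 TALE genes 7 passed the minimum, and 1 was higher and 2 lower in LOVO adherent cells by more than 1, against 17.4% and 16.4% of all genes compared, and 0 and 1 in LOVO spheroids, against 17.7% and 15.0%. PBX4 was at 3.19 and 2.70 FPKM in HCT116 and 0.284 and 0.739 in LOVO. MEIS3 was at 9.53 and 11.6 FPKM in HCT116 and at 2.63 and 7.43 in LOVO. MEIS1, a partner of HOXA9, had at most 1 read in HCT116 and 69 and 166 in LOVO. Of the ParaHox genes, sisters of the HOX clusters, CDX2 and PDX1 were seen in HCT116, with 323 and 216 reads and 104 and 80 reads, and both had 0 reads in LOVO.

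Polycomb and Trithorax-type complexes hold HOX genes off and on. All 27 Polycomb genes listed passed the minimum. In adherent cells 4 were higher in LOVO by more than 1, EZH2, PCGF5, PHF19 and RBBP7, and 4 lower, PHC1, PHC2, CBX6 and PCGF3. These 8 of 27 stand beside 33.8% of all genes compared, 17.4% higher and 16.4% lower. EZH2, the enzyme that writes the repressive mark on histone H3 lysine 27, was at 17.6 and 11.9 FPKM in HCT116 adherent cells and spheroids and 38.8 and 21.0 in LOVO. PHC1, a subunit of the other Polycomb complex, was at 6.86 and 7.39 FPKM against 1.35 and 2.02. Among 12 genes of the H3K4 methyltransferases and H3K27 demethylases, KDM6B alone differed by more than 1 between the adherent libraries, at 13.6 FPKM in HCT116 and 3.66 in LOVO. WDR5, the shared subunit that the study followed, was at 26.0 and 15.5 FPKM in HCT116 adherent cells and spheroids and 35.8 and 19.5 in LOVO, so that the growth-form differences were -0.71 and -0.84 on the log2(FPKM + 1) scale.

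Retinoic acid switches on the anterior ends of the clusters. Of 17 genes of its pathway 9 passed the minimum. In LOVO spheroids 2 of these were higher and 0 lower than in LOVO adherent cells by more than 1, against 8.57% and 7.85% of all genes. RARB, a receptor that retinoic acid itself induces, had 2 and 5 reads in HCT116 adherent cells and spheroids, 3 in LOVO adherent cells and 163 in LOVO spheroids, the library in which HOXA2 to HOXA6 and HOXB2 were higher than in its adherent counterpart. In the same library HOXB1, HOXD1 and HOXD3 had 0 reads, and the LOVO intervals of HOXB4 and HOXB5 between growth forms included 0. The part of RARB in these HOX values was not tested. CYP26B1, an enzyme that degrades retinoic acid, was at 9.41 and 19.9 FPKM in HCT116 and 7.91 and 18.5 in LOVO, higher in spheroids in both lines. CRABP2, which carries retinoic acid to its receptors, was at 201 and 241 FPKM in HCT116 and 3.09 and 13.9 in LOVO. CTCF and cohesin divide the clusters into domains, and all 8 of their genes were higher in LOVO among adherent cells, where 53.0% of all genes compared were, with 4 of them past 1, where 17.4% were. Among spheroids 6 of 8 were higher, against 51.6%, and 5 to 8 of them under the other scalings. SMC1A was at 14.3 and 7.77 FPKM in HCT116 and 52.1 and 27.2 in LOVO.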

How the data were processed

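Total RNA of 4 cultures was sequenced with an mRNA library kit. The authors deposited 1 table of FPKM values per gene with gene lengths. Aligner, counter and strand setting are not given in the sources used here. The labels list mouse builds (GRCm38, mm10), whereas all 58735 gene IDs are human IDs of GENCODE 29. Whole reads were recovered from the deposited FPKM as multiples of the smallest value times length, and 100% of values above 0 came out whole within 0.02. Genes with a mean of at least 1 FPKM (14429) were compared as log2(FPKM + 1) differences, called above 2, the study's threshold, or 1. Ratios carry exact 95% Clopper-Pearson intervals on the reads, checked on simulated data. The lines and growth forms were compared with limma 3.58.1 (R 4.3.3), also tested on simulated data. edgeR, which the authors used, was not run on the recovered reads. HOX genes at 1 FPKM or more in any library are named with values, and genes of the other lists by a difference above 1 or a place beside a cluster. MEIS1, WDR5 and the microRNA hairpins were chosen for naming after their values were seen. The members and lists were chosen with earlier results of these data known. Where nothing says that libraries came from separate cultures, p-values measure only the spread between these samples. Alternatives were other pseudocounts, filters, scalings and thresholds, a fit without covariate, and leaving out each library. One member and 1 cofactor gene are counted but not reported here by name.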

Additional observations from a re-analysis of the deposited data

Results flagged for a closer look

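In 7 members the counting interval of spheroids to adherent cells lay above 0 in HCT116 and below 0 in LOVO. The difference between the lines was not tested, as each growth form of a line is 1 library. The log2 ratio in LOVO minus that in HCT116 was -2.13 for HOXA7, -2.13 for HOXA9, -1.63 for HOXA10, -1.20 for HOXA13, -0.65 for HOXB7, -0.93 for HOXB13 and -0.98 for HOXC10. For HOXA7 the ratio was 0.88 in HCT116 against -1.25 in LOVO, with 62.5% of its exonic bases opposite HOXA-AS3. HOXB7, HOXB13 and HOXC10 had the smallest differences of the 7. The LOVO ratios of HOXB7 and HOXC10, -0.28 and -0.23, become -0.08 and -0.02 after rescaling to TPM, where their intervals include 0. The HCT116 ratio of HOXB13, 0.27, becomes 0.20 with the TMM-style factor, where its interval includes 0. HOXA3 was lower in LOVO than in HCT116 among adherent cells, at a log2 ratio of -0.74, and higher among spheroids, at 0.70, a difference of 1.44 that was not tested either.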

How the results depend on the processing

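Differences over 1 of the 31 HOX genes at 1 FPKM or more in any library kept their sign under the other pseudocounts and scalings, in 155 of 155 cases. So did those of 51 genes past the minimum in the other lists, in 460 of 460, a check added after seeing the data. Both outcomes were set in advance. A pseudocount cannot change a sign, and the scalings shifted the log2 ratios by less than 1, so these counts do not measure stability. The number of members differing by more than 2 depended on how low values were damped. A pseudocount of 0.1 gave 10 between the adherent libraries and 9 between the spheroid libraries, in place of 4 and 3. The share of all genes compared rose as well, from 10.9% to 20.1% and from 10.4% to 18.4%. A pseudocount of 0.01 gave 11 and 9, against 21.2% and 19.4%. It gave 2 in HCT116 between growth forms in place of 0, against 3.17%. TPM gave 9 and 7, against 17.6% and 17.1%. A threshold of 1 gave 14 and 13, against 33.8% and 32.7%, and 3 in LOVO between growth forms, against 16.4%. Members with no shared exonic base were also counted alone, an alternative chosen after seeing the data. The counts past 2 were then 1 and 0 of 8 members, against 10.9% and 10.4% of all genes compared. limma called 4 of the 8, against 24.7%. These shares cover all genes, with or without shared bases. Rescaling to TPM moved the median of all genes from -0.06 to 0.10 between the growth forms of LOVO and from 0.04 to 0.26 between the spheroid libraries. The split past 1 became 5 higher and 3 lower in place of 1 and 2 in LOVO spheroids, where 22.4% of all genes passed it in place of 16.4%. The split past 2 became 6 higher and 1 lower with TPM between the spheroid libraries, against 17.1%. After median centring it became 3 higher and 2 lower between the adherent ones, against 11.1%. With TPM the intervals of HOXB7, HOXC10, HOXC13 and HOXD8 no longer lay below 0 in LOVO spheroids, and 15 members were higher and 8 lower. With the TMM-style factor HOXA3 and HOXB13 were lost from those higher in HCT116 spheroids. For the cell line limma called 11 of 27, where 24.7% of all genes were called, and 6 of 38 with no filter, against 7.34%. It called 4 of 6 genes at a mean of 5 FPKM, against 23.2%, and 10 of 27 without the growth-form term, against 18.3%. Leaving out 1 library changed the calls of HOX genes and of all genes. There the lone sample of a line is assumed to vary as the pair of the other line does. HOX genes called for growth form stayed at 0 under all alternatives run. The median difference of LOVO spheroids and adherent cells was -0.24 over the 6 members at a mean of 5 FPKM, and that between adherent libraries 0.0029 with no filter, medians counting as moved past 0.25. Counting more than 3 reads as expressed gave 32 members in HCT116 adherent cells in place of 21. No paired analysis was possible by replicate number because each group has 1 library, and the growth-form term of the limma fit is what pairs the lines. With 1 library a group, depth limits counting error only, and differences between conditions could not be set against the spread between cultures.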
